A study of Mus musculus with 15 samples.

Results

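Rab GTPases are the 51 genes, of 14801 in the deposited table, whose symbol is Rab followed by a number and at most a letter and a digit, as in Rab7, Rab27a or Rab3d. The table holds RNA sequencing of 5 cell populations, each with 3 libraries, which were sorted by flow cytometry from freshly taken marrow of healthy mice. The groups are CMP, the common progenitors of myeloid cells, CD115plusGMP, progenitors of granulocytes and monocytes that carry the growth factor receptor CD115, and Neutrophil, besides PreNeut_Neutrophil and ProNeut_Neutrophil (neutrophil progenitor subsets, called PreNeut and ProNeut from here on). No group was treated or carried an altered gene according to the labels, and strain, age, sex and the markers of each sort are not stated in the labels used here. Whether each library is a separate animal is not stated either, so p-values reflect only the spread among these libraries, which may be technical.

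Rab proteins are small GTPases that switch between a GTP-bound form, held on a membrane, and a GDP-bound form, kept in the cytosol by a dissociation inhibitor. Exchange factors load GTP and GTPase-activating proteins end the signal. In the active form each Rab recruits effectors that move, tether or fuse the vesicles of its own compartment. In neutrophils, which store antimicrobial proteins in granules, Rab27a with its effectors is known for docking granules at the plasma membrane, and Rab5 and Rab7 mark the early and late stages of endosomes and phagosomes. The 51 genes were placed by textbook role: 12 in secretory and granule traffic, 11 in traffic between ER and Golgi or within the Golgi, 7 each in early endosomes, in recycling endosomes and in late endosomes, lysosomes and autophagosomes, 3 in lysosome-related organelles, and 4 in cilia or other roles.

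The 15 libraries formed 2 sets that follow the groups, and no level is tested between the sets, since set and group cannot be told apart. In the first set (CMP, CD115plusGMP and Neutrophil) a library had 810794 to 1444403 reads over the genes of the table and only 248 to 1304 reads over the 51 Rab genes. In the second set (PreNeut and ProNeut) these numbers were 7493694 to 68171606 and 35969 to 298853. Levels are given as log2 CPM, the deposited read numbers scaled to a library size (counts per 1000000, CPM) on the log2 scale. The size that the deposited values imply differs from the reads over the table's genes. It was 0.254 to 0.908 of these reads in the first set (lowest in Neutrophil, highest in CMP) and 1.929 to 2.243 of them in the second. On this scale a gene with 0 reads is at -1.31 to 0.63 in the first set and at -8.14 to -4.90 in the second. In the first set ND6, encoded on the other mitochondrial strand than the remaining protein genes, took 69.1% to 93.3% of mitochondrial reads (0.154% to 0.230% in the second), and some Rab values there followed a gene on the other strand, as given below. First-set values are therefore values of a gene's locus. They may hold reads of either strand or mainly those of the strand opposite to the gene, and which was counted was not tested. Within the first set late granule genes followed the labels. These 12 genes summed to 11400 to 39300 CPM per library in Neutrophil and to 28.2 to 91.0 CPM in CMP and CD115plusGMP. Ly6g and Mmp9 had 0 reads in CMP. In the second set the same genes summed to 78000 to 100000 CPM in PreNeut and 100000 to 125000 in ProNeut. Other lists are given below, among them B lymphoid genes at 43.3 to 88.8 CPM in Neutrophil. In these bulk libraries fewer cells of a type and less RNA per cell cannot be told apart.

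The test was run on genes whose log2 CPM exceeded 0 in 3 or more of the 15 libraries. This left 48 of the 51 members, without Rab36, Rab3b and Rab6b. Rab36 had 0 reads in all 15 libraries. At the depth of the first set 7 members had 0 reads in all 3 CMP libraries, 9 in CD115plusGMP and 15 in Neutrophil, against 1 in PreNeut and 2 in ProNeut. A group of the first set had at least 10 reads for 22 members in CMP, 24 in CD115plusGMP and 32 in Neutrophil. For the other members there a difference was not detectable with so few reads unless it was large.

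Rab27a, Rab3d, Rab31 and Rab32 each passed as higher in both CD115plusGMP and Neutrophil than in CMP, as the values further on show. The 250 bases before the RefSeq start of each are therefore shown, from RefSeq promoters of GRCm38.p6. RefSeq promoters were matched for 41 of the 51 members; Rab44, which did the same, is among those not listed in that table. Capitals mark matches, on either strand, to GGGCGG (the GC box) and GAGGAAGT (the PU.1 motif, of a factor of myeloid cells). The sequences run from 5′ to 3′ on the strand of the gene, and of the 2 promoters listed for Rab27a the 1 nearest its annotated start is given.

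Rab27a promoter, chr9:73044560-73044809, plus strand: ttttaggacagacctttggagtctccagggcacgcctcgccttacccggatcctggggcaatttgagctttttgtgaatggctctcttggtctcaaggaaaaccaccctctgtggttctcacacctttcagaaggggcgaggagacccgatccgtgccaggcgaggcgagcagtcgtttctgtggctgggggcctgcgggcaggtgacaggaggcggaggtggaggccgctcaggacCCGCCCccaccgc

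Rab3d promoter, chr9:21918184-21918433, minus strand: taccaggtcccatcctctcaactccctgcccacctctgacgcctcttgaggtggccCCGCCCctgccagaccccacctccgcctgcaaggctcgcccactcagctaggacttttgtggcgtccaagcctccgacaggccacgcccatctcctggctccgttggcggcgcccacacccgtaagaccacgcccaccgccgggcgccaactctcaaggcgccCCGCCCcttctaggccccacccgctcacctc

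Rab31 promoter, chr17:65772753-65773002, minus strand: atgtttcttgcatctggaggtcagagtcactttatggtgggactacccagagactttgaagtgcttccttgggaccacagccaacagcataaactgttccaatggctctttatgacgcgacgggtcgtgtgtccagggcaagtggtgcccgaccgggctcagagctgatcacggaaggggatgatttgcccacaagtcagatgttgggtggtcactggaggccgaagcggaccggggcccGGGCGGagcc

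Rab32 promoter, chr10:10558208-10558457, minus strand: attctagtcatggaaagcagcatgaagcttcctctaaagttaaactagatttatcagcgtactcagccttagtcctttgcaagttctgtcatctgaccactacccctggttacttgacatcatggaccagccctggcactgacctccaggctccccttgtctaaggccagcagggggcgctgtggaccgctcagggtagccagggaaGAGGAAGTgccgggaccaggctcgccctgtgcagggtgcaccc

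The GC box lies before the start in Rab27a, Rab3d and Rab31, and it is the common motif of this family. It was found in promoters of 32 of 41 members and in 71.2% of the 52 promoters listed for them, against 35.7% of all 32841 promoters of the same length (250 bases before to 50 after the start). The window of Rab32 held a PU.1 match beginning 43 bases before the RefSeq start. In GENCODE the gene starts 58 bases further upstream, at 10558265, so there the match lies inside the gene. The PU.1 motif was found in 2 of 41 members (3.85% of their promoters, 3.20% of all). TTGCNNAA, a C/EBP motif, was in 4 members (7.69% of their promoters, 10.8% of all), and in none of the 4 windows above. TATAAA was in 3 members (5.77% against 13.6%). TCACGTGA, the motif bound by TFEB, a regulator of lysosomal genes, was in 3 members, Rab5a, Rab21 and Rab24 (5.77% of their promoters, 0.974% of all). It contains CACGTG, the E-box, which was in 6 members (11.5% against 7.15%). The TFEB matches before the start are shown with the motif in capitals, since Rab5a, the classical Rab of early endosomes, and Rab21, of early endosomes and integrin uptake, were both higher in Neutrophil than in CMP. The call of Rab5a depended on the fit, as given below. Rab24, whose match begins after the start, passed in no comparison. A match is a description of the sequence, and binding was not measured.

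Rab21 promoter window, chr10:115315604-115315633, minus strand: gcccaccgcggTCACGTGAcgaggggtgtg

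Rab5a promoter window, chr17:53479127-53479156, plus strand: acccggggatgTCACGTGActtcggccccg

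The deeper second set gives the order of the Rab genes within the neutrophil progenitors. To compare genes, CPM were divided by the length of a gene's exons in kilobases (CPM per kb). That length covers the exons of all annotated transcripts, so the order and the shares below depend on it. Rab14, with 13975 reads in PreNeut and 13589 bases, ranked 25, and Rab2a, with 12347 reads and 2133 bases, ranked 7. Rab5c, a Rab of early endosomes, was highest, at 69.8 ± 5.8 CPM per kb (SD over the 6 PreNeut and ProNeut libraries; 61.1 to 79.4), and its libraries did not overlap with those of the next gene. Then came Rab44, a large Rab with an EF-hand region, at 43.2 to 58.5, Rab27a at 49.1 ± 1.36, Rab1b, of ER to Golgi traffic, at 47.6 ± 2.40, and Rab3d, a Rab of secretory granules, at 45.4 ± 5.40. Rab6a, of Golgi traffic, followed at 35.0 and Rab2a, of ER to Golgi traffic, at 33.9. From Rab44 to Rab2a each gene overlapped with its neighbour in the order. Rab44, Rab27a and Rab1b did not overlap with Rab6a (27.3 to 42.0) or Rab2a (29.4 to 39.4), and Rab2a lay above the next gene, Rab8a (22.4 to 28.2), without overlap.

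The 5 highest members held 39.2% to 43.0% of the CPM per kb summed over all 51 genes in a library (593.0 to 702.0). In all 22 members were above 10 CPM per kb, 13 lay from 1 to 10 and 16 were under 1. The lowest were Rab36 at 0, Rab26 at 0.00647 and Rab6b at 0.00734 CPM per kb. By role, secretory and granule Rabs held 33.5% of the sum in PreNeut and 32.1% in ProNeut, ER and Golgi Rabs 23.5% and 24.3%, and early endosome Rabs 19.1% and 19.3%. Recycling Rabs held 8.45% and 9.04%, late endosome Rabs 7.95% and 8.30%, and Rabs of lysosome-related organelles 5.44% and 4.93%. The range of the 3 libraries of PreNeut overlapped with that of ProNeut for the granule, the early endosome and the recycling shares, and did not for lysosome-related organelles (5.06% to 5.70% and 4.86% to 4.99%).

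**Figure D1:**
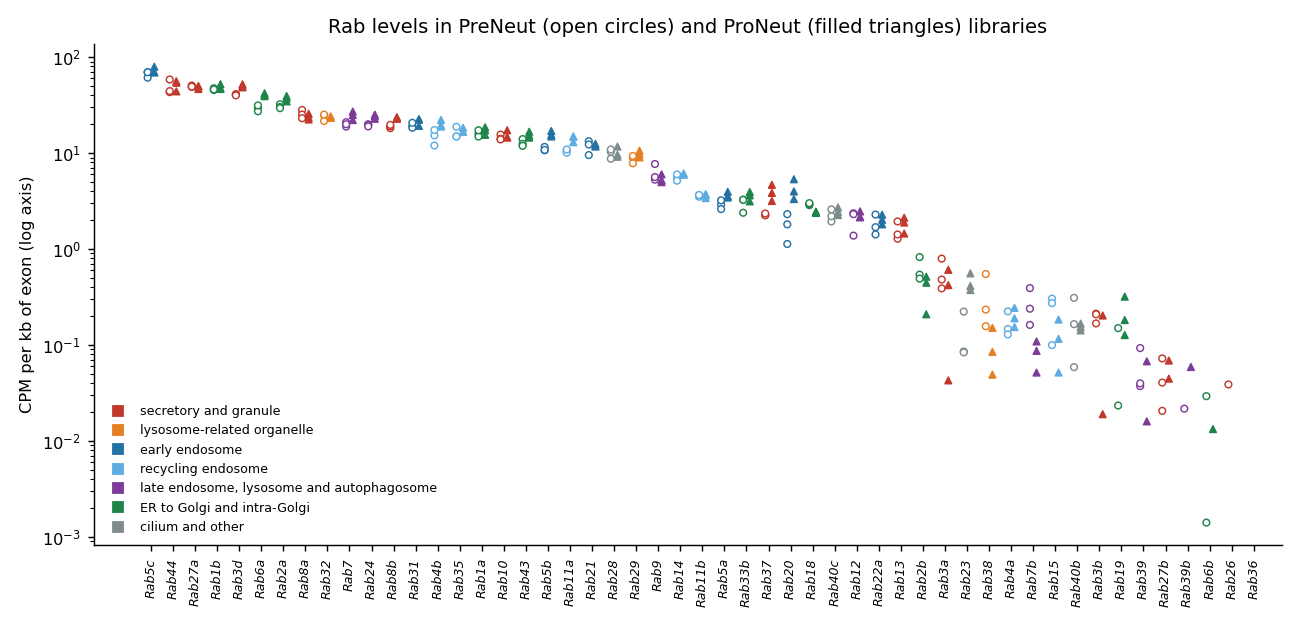
Level of each Rab gene (CPM per kb of exon, log axis) in the 3 PreNeut libraries (open circles) and the 3 ProNeut libraries (filled triangles), coloured by role and ordered by the mean of 6; libraries at 0 are not drawn. Rab5c stands at 61.1 to 79.4, above the group of Rab44, Rab27a, Rab1b and Rab3d, and 16 members lie under 1.

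Most Rab numbers were represented by 1 paralog. Rab27a made up 99.9% of Rab27 CPM per kb in both subsets, with Rab27b, its close relative in other secretory cells, at 0.0892% and 0.0778%. Rab3d made up 98.2% of the Rab3 genes in PreNeut and 99.2% in ProNeut, leaving 1.34% and 0.695% to Rab3a, the synaptic vesicle Rab. Rab4b held 98.8% and 99.0% of the Rab4 pair, Rab7 98.7% and 99.7% of Rab7 and Rab7b, and Rab2a 97.3% to 98.4% and 98.5% to 99.4% of the Rab2 pair over libraries. Other numbers were shared. Rab5c held 82.7% and 78.9% of the 3 Rab5 genes, and the range over libraries in ProNeut (77.2% to 80.3%) lay below that in PreNeut (80.5% to 83.9%), while Rab5b was at 13.7% and 17.2% and Rab5a at 3.63% and 3.96%. Rab11a held 74.4% and 79.8% of the Rab11 pair, without overlap (73.5% to 74.9% and 78.1% to 81.4%). Rab1b held 74.3% and 74.0% of the Rab1 pair. Rab8a held 57.3% and 50.7% of Rab8a and Rab8b, both known for exocytic traffic, also without overlap (54.0% to 60.8% and 49.6% to 52.8%). These shares were not tested, and reads that fit paralogs equally may have been split or dropped in the counting.

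**Figure D2:**
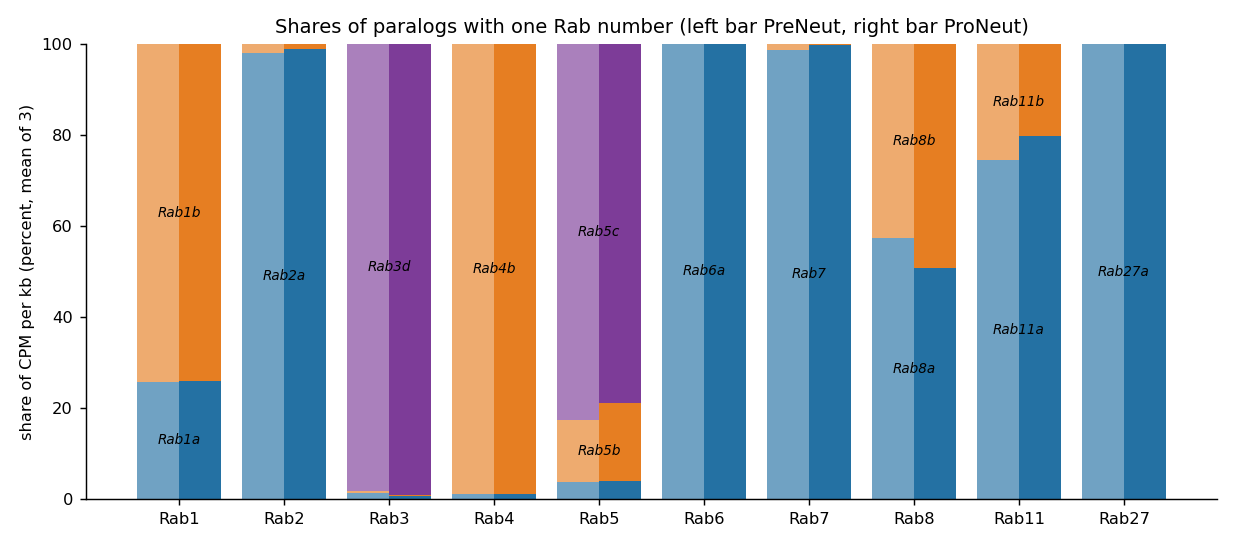
Share of each paralog in the CPM per kb of the Rab genes with the same number (percent, mean of 3 libraries; left bar PreNeut, right bar ProNeut; paralogs under 6% are drawn without a label). Rab27, Rab6, Rab7, Rab4, Rab3 and Rab2 are each carried almost wholly by 1 gene, and Rab8a is at 57.3% and 50.7%.

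The comparison of ProNeut with PreNeut asks whether the Rab genes differ between these neutrophil progenitor subsets. No member passed. A gene passed, here and below, at a limma adjusted p under 0.05 over all 14161 genes tested (Benjamini-Hochberg) and a difference of at least 1 log2 unit. This was so for 0 of 48 members against 2.26% of all genes (1.84% higher and 0.417% lower), and 2 members, Rab19 and Rab23, were at an unadjusted p under 0.05. The leading granule Rabs lay close together. Rab27a (Entrez 11891, GRCm38 chromosome 9, 73044854 to 73097629, plus strand) was at 7.62, 7.57 and 7.58 log2 CPM in PreNeut and at 7.60, 7.5 and 7.58 in ProNeut, a difference of -0.03 ± 0.34 (SE). Rab44 (Entrez 442827, chromosome 17, 29114145 to 29148980, plus strand) was at 7.77, 8.21 and 7.81 against 8.15, 8.10 and 7.80, a difference of 0.08 ± 0.59. Rab32, of lysosome-related organelles such as melanosomes, was at 5.80 ± 0.12 (SD, n = 3) in PreNeut and 5.80 ± 0.02 in ProNeut. The SE values come from a fit in which all 15 libraries share 1 spread per gene; from the 6 second-set libraries alone those of Rab27a, Rab44 and Rab32 were 0.08, 0.12 and 0.09. A difference that did not pass is not shown to be absent.

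The libraries of the subsets did not overlap for 14 members higher in ProNeut and 2 lower, against 17.8% and 18.2% of all genes. Rab3d (Entrez 19340, chromosome 9, 21907491 to 21918192, minus strand) was at 7.43, 7.42 and 7.39 in PreNeut and at 7.77, 7.67 and 7.72 in ProNeut, higher in every ProNeut library, by 0.30 ± 0.37. Rab37 (Entrez 58222, chromosome 11, 115091431 to 115162236, plus strand), known from mast cell granules, was at 3.59, 3.59 and 3.65 against 4.64, 4.08 and 4.36, also without overlap. Rab6a was at 6.79, 6.67 and 6.87 against 7.19, 7.23 and 7.29, Rab5b at 5.50, 5.60 and 5.50 against 6.16, 5.97 and 6.03, and Rab11a, the main recycling Rab, at 4.98, 4.92 and 5.03 against 5.28, 5.48 and 5.47. The shifts were small: the median over the 48 members was 0.14, beside 0.07 over all genes tested.

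With only the 6 libraries of these groups in the limma fit and no minimum difference, a combination chosen after seeing the data, 13 of 48 members were higher in ProNeut and 0 lower at an adjusted p under 0.05, beside 10.8% and 11.1% of all genes. The differences ranged from 0.28 to 1.91 log2 units, and 11 of the 13 were under 1. Rab6a was higher by 0.46 ± 0.08 (SE; adjusted p = 0.00057), Rab5b by 0.52 ± 0.09 (adjusted p = 0.00039), Rab37 by 0.75 ± 0.14 (adjusted p = 0.0011), Rab11a by 0.44 ± 0.09 (adjusted p = 0.0031), Rab3d by 0.30 ± 0.08 (adjusted p = 0.0082) and Rab7, of late endosomes, by 0.30 ± 0.09 (adjusted p = 0.027). Rab43, Rab2a, Rab8b, Rab24 and Rab4b also passed in that fit, at 0.28 to 0.45. Rab23 and Rab20 were the members past 1 log2 unit.

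Rab23, known from cilia and Hedgehog signalling, was at 0.90, -0.46 and -0.52 in PreNeut and at 1.79, 2.22 and 1.64 in ProNeut, so every ProNeut library was above every PreNeut library. The difference was 1.91 ± 0.60 (limma adjusted p = 0.14 with all libraries, 0.006 with the second set alone), and 228 reads against 166 gave a ratio of 4.31 by depth (95% counting interval 3.51 to 5.29). Rab20, a Rab of endosomes and phagosomes, was at 1.69, 1.35 and 0.66 against 2.48, 2.22 and 2.90, a difference of 1.3 ± 0.96 (limma adjusted p = 0.75, and 0.0069 with the second set alone). Its read ratio was 3.13. Rab7b, a lysosomal Rab of monocytes and macrophages, went the other way, from 0.17, -0.38 and 0.86 in PreNeut to -1.20, -1.93 and -0.94 in ProNeut. Its difference was -1.57 ± 0.77 (limma adjusted p = 0.47), with 24 reads against 305 and a ratio of 4.05 lower. Read ratios of PreNeut rest mainly on its replicate 3, the deepest library, and such intervals cover counting error only. All 3 genes were low, with a mean under 3 CPM per kb over the 6 libraries.

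Rab19, a Rab of the Golgi, had the largest fitted difference, 3.19 ± 1.09 (limma adjusted p = 0.19; SE 1.36 from the 6 libraries alone), from 7 reads in PreNeut and 22 in ProNeut, a ratio of 9.86 (4.07 to 27.3). Its libraries overlapped. Rab3a was at 0.12, -0.17 and 0.83 against -0.04, -3.07 and 0.46, overlapping, and its difference of -1.14 was -0.05 without ProNeut replicate 2. Rab27b, with 63 and 21 reads, was at -1.21 ± 0.92 (SD, n = 3) and -2.36 ± 2.91, and Rab38, the relative of Rab32, with 67 and 9 reads, at -1.18 ± 0.92 and -2.63 ± 0.72. Of marker lists, 5 of 7 early granule genes passed as lower in ProNeut (394 to 464 CPM summed, against 1360 to 1590) and 3 of 12 late granule genes as higher (100000 to 125000 against 78000 to 100000). Also 6 of 12 erythroid genes passed as higher (50.5 to 57.9 CPM against 2.64 to 7.24, none at 0) and 4 of 4 basophil genes tested as lower (1.67 to 2.05 against 26.2 to 30.3, with Fcer1a at 0 in ProNeut). Of the T and NK cell genes, which summed to 3.21 to 5.24 CPM in ProNeut against 21.6 to 29.3, Nkg7 passed as lower and Cd3d as higher, with none at 0. Of 7 dendritic cell genes 1 passed as higher, at 6.69 to 8.7 CPM against 6.3 to 10.2. The part of these lists in the Rab values was not tested.

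Genes that act on Rabs were counted in 5 lists (154 genes tested). In ProNeut 2 passed as higher than in PreNeut and none as lower, both exchange factors. This was 1.3% higher, beside 1.84% of all genes higher and 0.417% lower, so no more than the background. Rin2, an exchange factor of Rab5, was at 4.89 ± 0.14 log2 CPM (SD, n = 3) in ProNeut against 1.77 ± 0.16, higher by 3.12 ± 0.62 (SE; limma adjusted p = 0.011) with a read ratio of 8.64 (7.90 to 9.46). It lost the call without ProNeut replicate 1 (3.04, adjusted p = 0.054) and in no other of 16 alternatives run. Rab3il1, an exchange factor of Rab3 and Rab8 relatives, rested on 32 reads against 5 (ratio 20.1, 7.76 to 66.0; difference 4.08 ± 1.03, limma adjusted p = 0.049) and passed in 9 of 16 alternatives, ranging from 2.48 without PreNeut replicate 3 to 5.30 without PreNeut replicate 2. None of 30 genes of granule fusion, 38 effectors, 34 GTPase-activating proteins and 13 genes of the GDI, escort and prenylation list passed in this limma fit, with 0, 3, 3 and 1 at an unadjusted p under 0.05. The granule fusion genes Unc13d, an effector of Rab27a, Stxbp2 and Stx11 differed by 0.19, 0.09 and 0.60, and Gdi2, a GDP dissociation inhibitor, by -0.04.

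The first set, read as locus values, covers progenitors and mature cells, and 3 comparisons were made within it. They share groups (CMP, CD115plusGMP and Neutrophil each enter 2 of them), so a gene that is high in Neutrophil moves in both of its comparisons, and the counts are given side by side. CD115plusGMP against CMP asks which Rab genes accompany the step to a granulocyte-monocyte progenitor. In it 6 of 48 members rose, 12.5% against 8.08% of all genes tested, and 0 fell, against 4.56%. They were Rab31, Rab3d, Rab27a, Rab44, Rab32 and Rab9, and 10 members were at an unadjusted p under 0.05 in either direction by limma. The members' median difference was 0.62, beside 0.26 over all genes. Among genes with at least 10 reads in these 2 groups it was 0.44 over 32 members and -0.07 over all genes, since 0.5 was added to every read number and a gene with 0 reads lies higher in a library of smaller scaled size.

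Rab27a had 2, 2 and 1 reads in the CMP libraries (1.53, 1.24 and 0.27 log2 CPM) and 40, 15 and 16 reads in CD115plusGMP (5.72, 4.87 and 4.97). Every CD115plusGMP library was above every CMP library, by 4.17 on the log2 scale (SE 0.34; limma adjusted p = 7.7e-07) and a read ratio of 24.6 (10.1 to 78.1). Rab44 had 2, 0 and 2 reads in CMP and 32, 11 and 7 in CD115plusGMP (5.40, 4.44 and 3.84). It was higher by 4.07 ± 0.59 (limma adjusted p = 0.00017; 3.29 without CMP replicate 2), with a ratio of 21.7 (7.95 to 82.6).

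Rab3d had 0 reads in each CMP library and 11, 4 and 3 in CD115plusGMP (3.90, 3.08 and 2.74), which is at least 10.4-fold higher, from a floor of 3 reads over the CMP group (limma adjusted p = 1.1e-06). Rab31 (Entrez 106572, chromosome 17, 65651729 to 65772752, minus strand), which acts between the trans-Golgi network and endosomes, also had 0 reads in each CMP library. It had 17, 7 and 11 in CD115plusGMP (4.51, 3.82 and 4.45), at least 20.2-fold higher (limma adjusted p = 1.3e-07). Rab32 (Entrez 67844, chromosome 10, 10545002 to 10558265, minus strand) had 0, 1 and 0 reads against 14, 4 and 4 (4.24, 3.08 and 3.10), a ratio of 38.1 (6.16 to 1570; limma adjusted p = 5.9e-05). These 5 genes passed in each of 17 alternatives run, and none shares exon bases with an annotated gene on the opposite strand. That does not show which strand gave their reads, which was not tested.

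Rab9, which returns receptors from late endosomes to the Golgi, was the weakest of the 6, with 1, 1 and 4 reads in CMP against 4, 3 and 4. Its difference of 1.74 ± 0.49 (limma adjusted p = 0.026) passed in 8 of 17 alternatives. It was lost without CMP replicate 1 or 2 and without CD115plusGMP replicate 2 or 3 (adjusted p = 0.051 to 0.11). With only the first-set libraries in the fit the limma adjusted p of Rab9 was 0.19. Members with more reads did not pass: Rab10, of exocytic and insulin-stimulated traffic, was at 5.67 ± 0.33 (SD, n = 3) and 6.05 ± 0.20, Rab1a at 5.03 ± 0.35 and 5.18 ± 0.55, Rab8a at 4.18 ± 0.20 and 4.40 ± 0.36, and Rab5c at 3.93 ± 0.37 and 3.70 ± 0.28. Rab10 shares 143 bases of exon with Rab10os on the opposite strand. Rab10os was at 6.58 ± 0.28 and 6.63 ± 0.50 in these groups and at 1.43 ± 0.31 and 1.74 ± 0.16 in PreNeut and ProNeut. Which of the 2 gave the first-set reads was not tested. Rab37 had 0 reads in CD115plusGMP and 2 in CMP. In the same comparison 6 of 7 early granule genes rose (summed 3.47 to 11.4 CPM in CMP, with Elane, Ms4a3 and Gfi1 at 0, and 386 to 819 in CD115plusGMP). Likewise 9 of 10 monocyte genes rose (21.8 to 24.3 against 335 to 610), and 8 of 12 erythroid genes fell (447 to 595 against 13 to 30.1, with 7 at 0 in CD115plusGMP). Their part in the Rab values was not tested.

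**Figure D3:**
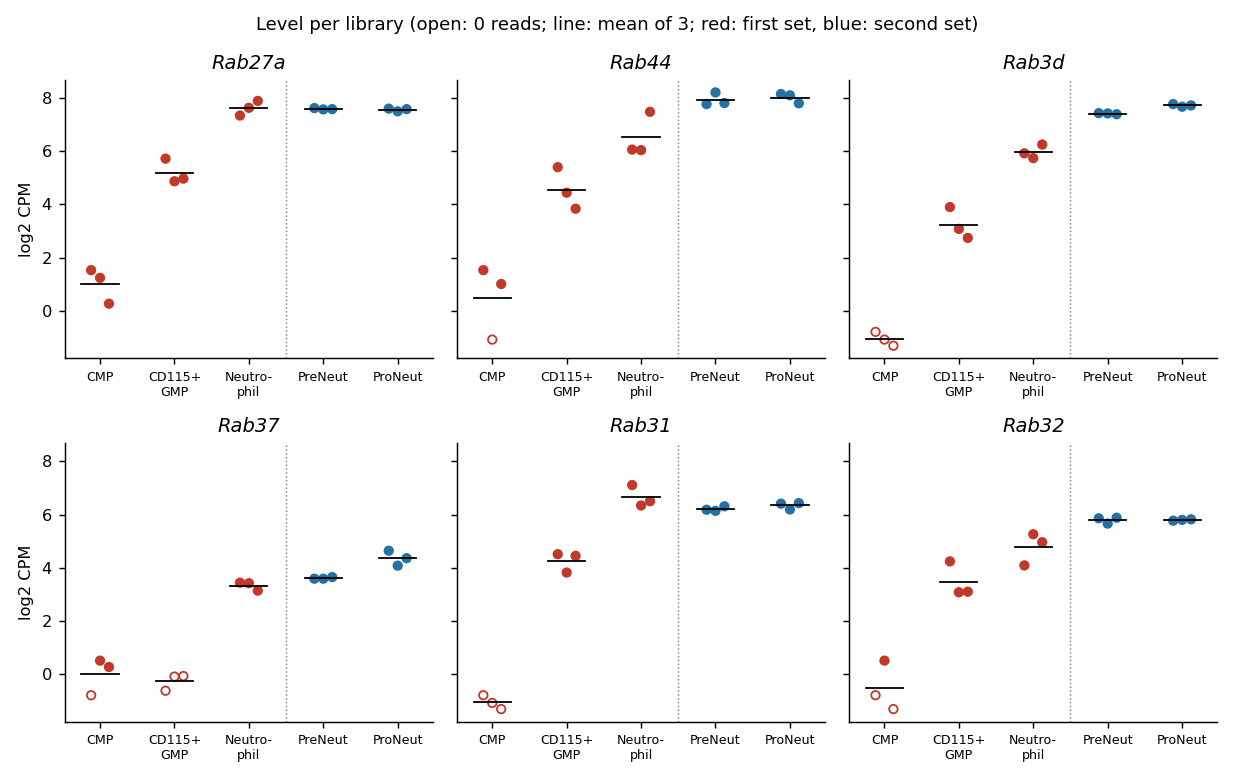
Level of 6 Rab genes in each library (log2 CPM; open points have 0 reads; lines are means of 3; the dotted line parts the first set, in red, from the second, in blue, which are not compared). Rab27a, Rab44, Rab3d, Rab31 and Rab32 stand higher in CD115plusGMP and Neutrophil than in CMP, and Rab37 has reads in every Neutrophil library and in none of CD115plusGMP.

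Neutrophil against CMP spans the whole course within the first set. Of 48 members 22 rose, 45.8% against 26.8% of all genes tested, and 1 fell, Rab4a, against 17.1%. The median was 1.61, beside 0.60 over all genes. Genes without a read in either group passed as well, because the 0.5 added gives them a higher value in the Neutrophil libraries, whose scaled sizes are smaller: these were 228 of all genes (3.67% of those that passed) and 0 members. Among the 35 members with at least 10 reads in these 2 groups 21 rose and 1 fell, against 33.1% and 24.9% of all such genes, and the median was 2.40 beside 0.24. By role the members that rose were 6 of 7 early endosome Rabs, 6 of 11 secretory and granule Rabs, 5 of 9 ER and Golgi Rabs, 2 of 7 recycling Rabs, 1 of 3 of lysosome-related organelles, 2 of 4 others and 0 of 7 of the late endosome and lysosome. At least 10 reads in these 2 groups were found for 6 early endosome Rabs, but for only 3 late endosome Rabs and 1 of lysosome-related organelles. The counts by role are therefore not on an equal footing. Besides, 1 late endosome Rab was higher at a limma adjusted p under 0.05, by less than 1 log2 unit. Of the 22, 16 have under 50 bases of exon shared with a gene on the opposite strand, as do 36 of the 48 tested. The count moved with the scaling: 14 rose and 6 fell with plain library totals, and 32 rose and 0 fell with median centring. Of all genes 13.6% rose and 32.9% fell with plain totals, and 39.1% and 7.88% with median centring, and these scalings shift the median of all genes by -1.36 and 1 log2 unit. With only the first-set libraries in the fit Rab5c and Rab40c lost their call (limma adjusted p = 0.13 and 0.065). The other members that passed kept theirs.

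Rab27a had 52, 64 and 148 reads in the Neutrophil libraries (7.34, 7.63 and 7.89), a ratio of 131 to CMP (55.5 to 407; limma difference 6.61 ± 0.34, adjusted p = 4.9e-10). The difference of Rab27a ranged from 5.24 to 7.61 over the alternatives, and read ratios of Neutrophil to CMP are larger here than on plain library totals. Rab31 had 44, 26 and 56 reads (7.11, 6.34 and 6.50) and was at least 104-fold higher. Rab3d had 19, 17 and 47 reads (5.92, 5.74 and 6.25), at least 68.7-fold higher. Rab44 had 21, 21 and 111 reads (6.06, 6.04 and 7.48), a ratio of 95.0 (36.4 to 353), and its difference of 6.04 was 5.26 without CMP replicate 2. Rab32 had 5, 12 and 19 reads (4.09, 5.26 and 4.96), a ratio of 89.4 (15.1 to 3630). All Neutrophil libraries were above all CMP libraries in these 5 genes. Rab33b, of the Golgi and of autophagosome formation, had 9, 10 and 4 reads against 2 in all of CMP, a read ratio of 28.6 (7.06 to 250), and its difference of 4.53 was 5.44 without CMP replicate 1 and 5.23 without Neutrophil replicate 3. It shares 661 bases of exon with an opposite gene.

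Rab37 had 3, 3 and 5 reads in Neutrophil (3.44, 3.42 and 3.14) against 0, 1 and 1 in CMP, a ratio of 13.7 (2.98 to 127; limma adjusted p = 1.8e-05). Rab8a was at 6.61, 7.06 and 7.85 against 3.96, 4.35 and 4.24, higher by 2.99 ± 0.32 (limma adjusted p = 1.4e-06). Among early endosome Rabs, Rab21 rose by 3.21 ± 0.43, Rab5b by 3.14 ± 0.53 and Rab22a by 2.83 ± 0.63. Rab5a, with 221 bases of exon shared with Pp2d1 on the opposite strand and at 2.28 ± 1.3 (SD, n = 3) in CMP and 4.68 ± 0.18 in Neutrophil, passed in 12 of 17 alternatives and lost its call without Neutrophil replicate 1, CMP replicate 2 or CMP replicate 3 (limma adjusted p = 0.054, 0.1 and 0.076). Rab5c, at 3.96, 4.28 and 3.54 in CMP and 4.54, 4.52 and 5.91 in Neutrophil, rose by 1.06 ± 0.38 (limma adjusted p = 0.031) and passed in 9 of 17 alternatives, but was at 0.60 without Neutrophil replicate 3, and it was lower with quantile normalization (-0.02) and with plain totals (-0.30).

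The fall of Rab4a, a fast recycling Rab, rested on 2, 8 and 14 reads in CMP and 0 in each Neutrophil library, at least 3.22-fold lower (limma adjusted p = 0.0032). Rab3a had 45, 57 and 56 reads in CMP, 34, 15 and 21 in CD115plusGMP and 0, 14 and 6 in Neutrophil. Its Neutrophil libraries spread from 0.63 to 5.47 and the difference of -2.50 ± 0.99 did not pass (limma adjusted p = 0.051). The late endosome Rab7 was at 2.16 ± 0.59 (SD, n = 3), 2.20 ± 0.67 and 2.73 ± 2.04 in CMP, CD115plusGMP and Neutrophil, and the recycling Rab11a at 1.23 ± 1.79, 1.98 ± 0.91 and 3.18 ± 2.22. Both overlapped between all 3 groups. Rab38 and Rab27b had at most 8 reads in any of these groups. Beside these counts 12 of 12 late granule genes rose, from 36.9 to 40.2 CPM summed in CMP to 11400 to 39300, and 8 of 12 erythroid genes fell. Of the B lymphoid genes Cd79a rose, and the list summed to 43.3 to 88.8 CPM in Neutrophil and to 0.947 to 6.44 in CMP. Of the T and NK cell genes Cd3d rose, with 6.19 to 17.6 CPM (Nkg7 and Cd3e at 0) against 0. Also 3 of 10 monocyte genes rose and 1 fell (15.3 to 152 against 21.8 to 24.3), 3 of 7 early granule genes rose (61.3 to 195 against 3.47 to 11.4), among them Elane with 1 read, and 1 of 7 dendritic cell genes rose (6.19 to 101 against 21.7 to 37.0). The part of these lists was not tested.

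**Figure D4:**
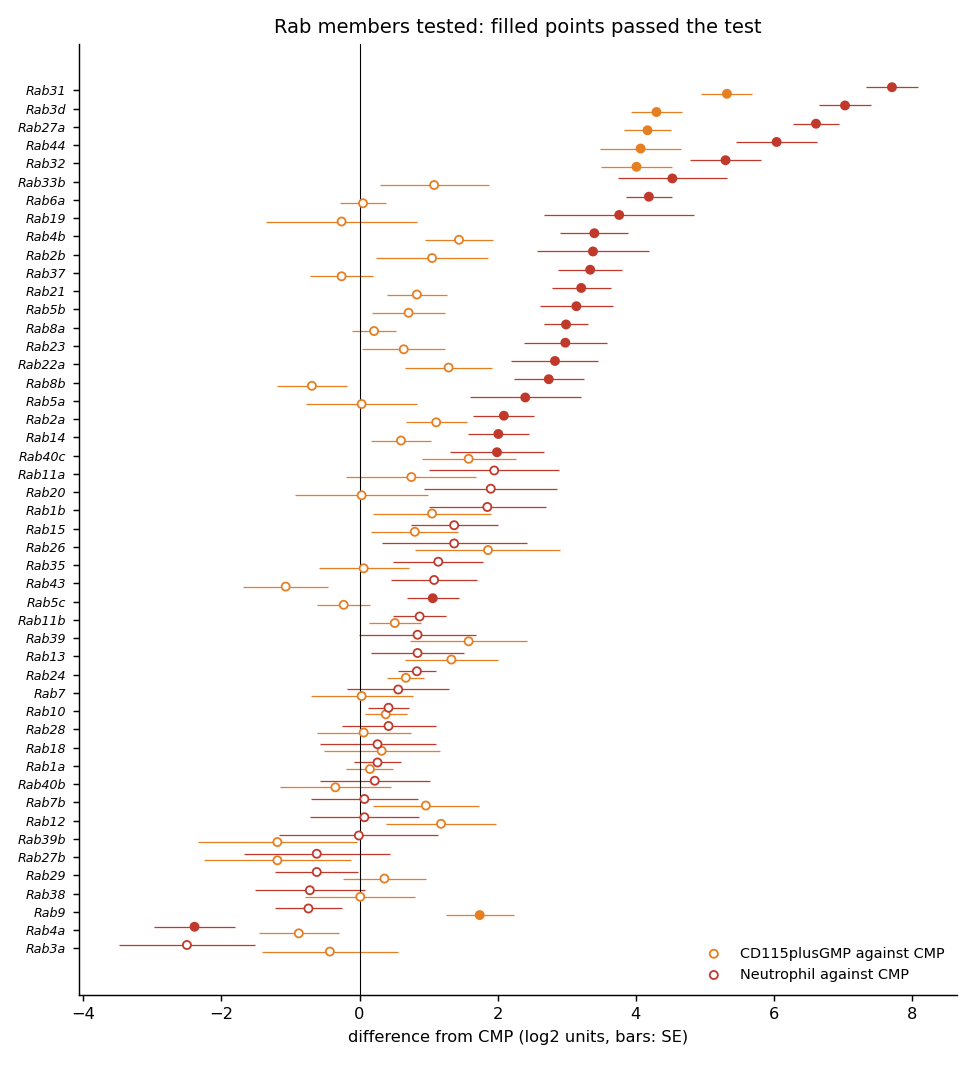
Difference from CMP of CD115plusGMP (orange) and Neutrophil (red) for the 48 Rab genes tested (log2 units, bars are SE); filled points passed the test, and both comparisons share the CMP libraries. Rab31, Rab3d, Rab27a, Rab44 and Rab32 are filled in both colours, and 0 late endosome Rabs are filled in red. Of the 7 late endosome Rabs only 3 had at least 10 reads in Neutrophil and CMP together.

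Neutrophil against CD115plusGMP asks what changes from the progenitor to the mature cell. Here 19 of 48 members rose, 39.6% against 20.2% of all genes tested, and 1 fell, Rab9, against 13.2%. The median was 1.13, beside 0.32. Among the 34 members with at least 10 reads in these 2 groups 19 rose and 1 fell, against 32.7% and 19.2% of all such genes, with a median of 1.75 beside 0.59. With plain totals the split was 12 and 4, beside 12.7% and 22% of all genes. The main fit shares 1 spread per gene with the deeper second set. With only the first-set libraries in the fit Rab44, Rab43, Rab5a, Rab14, Rab2b and Rab5c lost their call (limma adjusted p = 0.052 to 0.093). The other members that passed kept theirs. In the fit on all 15 libraries the members that rose were 5 of 7 early endosome, 6 of 11 secretory and granule, 5 of 9 ER and Golgi, 2 of 7 recycling and 1 of 4 other Rabs, and 0 of 7 of the late endosome and 0 of 3 of lysosome-related organelles. Here too only 3 late endosome Rabs and 1 of lysosome-related organelles had at least 10 reads in the 2 groups, against 6 early endosome Rabs.

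Rab6a (Entrez 19346, chromosome 7, 100607410 to 100641268, plus strand) showed the largest difference. It was at 3.77, 2.72 and 3.63 in CD115plusGMP and at 7.5, 7.96 and 7.08 in Neutrophil, higher by 4.14 ± 0.33 (SE, n = 3; limma adjusted p = 1.1e-07) with a ratio of 16.8 (10.5 to 28.5). It shares 708 bases of exon with Mrpl48, a mitochondrial ribosomal protein gene on the opposite strand. Mrpl48 was at 6.59 ± 0.13 (SD) in CD115plusGMP and 9.76 ± 0.81 in Neutrophil, but at 2.07 ± 0.27 and 2.62 ± 0.17 in PreNeut and ProNeut, where Rab6a was at 6.78 ± 0.10 and 7.24 ± 0.05. The order of the 2 genes was thus opposite in the 2 sets, and which of them gave the first-set reads was not tested. Rab20 and its partner E230013L22Rik, with 356 shared bases, showed the same: the partner was at 8.24 ± 0.58 in Neutrophil and -2.63 ± 0.42 in ProNeut, and Rab20 at 1.61 ± 2.57 and 2.53 ± 0.34.

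Rab19 had 0 reads in CD115plusGMP and 3, 8 and 5 in Neutrophil, at least 7.64-fold higher (limma adjusted p = 0.0083). Rab37 had 0 against 11 in sum, at least 5.25-fold higher (limma adjusted p = 1.4e-05). Rab8b was at 3.63, 2.23 and 4.45 in CD115plusGMP and 7.07, 5.74 and 7.77 in Neutrophil, without overlap, by 3.43 ± 0.51 (2.82 without CD115plusGMP replicate 2) and a ratio of 12.8 (8.2 to 20.8). Rab33b rose from 2 reads to 23, a ratio of 16.5 (4.07 to 144). Its difference of 3.45 was 2.74 without CD115plusGMP replicate 1 and 4.15 without Neutrophil replicate 3. Rab8a rose by 2.78 ± 0.32, Rab3d by 2.73 ± 0.37, Rab27a by 2.43 ± 0.34 and Rab31 by 2.39 ± 0.37. Rab44 rose by 1.97 ± 0.59 (limma adjusted p = 0.015) and passed in 11 of 17 alternatives, not without Neutrophil replicate 3 or CD115plusGMP replicate 3 (adjusted p = 0.077 and 0.075). Rab32 did not pass (1.3 ± 0.51, limma adjusted p = 0.063). Of the early endosome Rabs, Rab5a (2.37, limma adjusted p = 0.03) and Rab5c (1.29, limma adjusted p = 0.013) each passed in 10 of 17 alternatives. Rab5a was lost without Neutrophil replicate 1, 2 or 3 (limma adjusted p = 0.068, 0.051 and 0.06) and was at 1.17 without CD115plusGMP replicate 2 (adjusted p = 0.16). Rab5c was at 0.83 without Neutrophil replicate 3, 0.28 with quantile normalization and 0.48 with plain totals, and was lost without CD115plusGMP replicate 3. Rab9 had 4, 3 and 4 reads in CD115plusGMP and 0 in each Neutrophil library, at least 2.56-fold lower (limma adjusted p = 0.00076).

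Read side by side, 5 members (Rab27a, Rab31, Rab32, Rab3d and Rab44) passed as higher than in CMP in both CD115plusGMP and Neutrophil, and 4 of them, all but Rab32, also as higher in Neutrophil than in CD115plusGMP. A further 14, among them Rab6a, Rab8a, Rab8b, Rab21, Rab37 and the 3 Rab5 genes, did not pass in CD115plusGMP against CMP and did in both Neutrophil comparisons. In all 23 of 48 members passed in none of the 4 comparisons, among them Rab10, Rab1a, Rab1b, Rab7, Rab11a, Rab11b and Rab35. Beside Neutrophil against CD115plusGMP, 12 of 12 late granule genes rose, 5 of 7 early granule genes fell (386 to 819 CPM to 61.3 to 195, with Prtn3, Ctsg and Gfi1 at 0) and 6 of 10 monocyte genes fell (335 to 610 to 15.3 to 152, with Ms4a6c and Irf8 at 0). Cd79a and Cd3d rose, with B lymphoid genes at 43.3 to 88.8 against 1.88 to 3.9 CPM and T and NK cell genes at 6.19 to 17.6 against 0 to 7.53, and so did 2 of 12 erythroid genes (34.0 to 64.0 against 13 to 30.1). The part of these lists was not tested.

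Of 154 Rab regulators and effectors tested 17 rose and 9 fell in CD115plusGMP against CMP (11% and 5.84%, beside 8.08% and 4.56% of all genes). In Neutrophil 56 rose and 12 fell against CMP (36.4% and 7.79%, beside 26.8% and 17.1%), and 49 rose and 14 fell against CD115plusGMP (31.8% and 9.09%, beside 20.2% and 13.2%). Of the 56, Tbc1d10a and Hps4 had 0 reads in both groups, so their values differ only through the 0.5 added. In ProNeut against PreNeut 2 rose and 0 fell (1.3%, beside 1.84% of all genes higher), which is no more than the background. Against CMP, 13 of 39 exchange factors, 14 of 34 GTPase-activating proteins, 5 of 13 genes of the GDI, escort and prenylation list, 12 of 38 effectors and 12 of 30 granule fusion genes were higher in Neutrophil. The split followed the scaling. With plain totals it was 32 and 44 in Neutrophil against CMP (38 and 20 after quantile normalization, and 73 and 4 where medians were centred), 35 and 22 in Neutrophil against CD115plusGMP (39 and 19, and 68 and 6), and 11 and 13 in CD115plusGMP against CMP (21 and 5 where medians were centred).

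The Rab27a effector Unc13d was at 3.76 ± 0.18 (SD, n = 3) in CMP, 2.28 ± 0.78 in CD115plusGMP and 5.47 ± 0.57 in Neutrophil. It was lower in CD115plusGMP than in CMP by 1.48 log2 units (-1.48 ± 0.41 SE, limma adjusted p = 0.023) and higher in Neutrophil than in either. Its membrane fusion partners Stx11 and Stxbp2 were at 2.11 ± 1.04 and 2.86 ± 0.40 in CMP, 2.28 ± 0.78 and 3.66 ± 1.24 in CD115plusGMP, and 6.11 ± 0.36 and 6.22 ± 0.74 in Neutrophil. Both passed in both Neutrophil comparisons and not in CD115plusGMP against CMP. Sytl1, another Rab27a effector, had at most 6 reads in 2 groups together and passed in none. Lrrk2, a kinase that phosphorylates Rabs, had 1 read in CMP, 9 in CD115plusGMP and 240 in Neutrophil, a ratio of Neutrophil to CMP of 596 (106 to 23600). Lyst, whose loss gives giant granules, had 5, 16 and 279 reads, a ratio of 139 (58.7 to 430); its difference of 6.83 was 5.96 without CMP replicate 2 and 7.51 without CMP replicate 1. Rin2 had 52 reads in Neutrophil and 0 in CD115plusGMP, at least 24.8-fold higher. Dennd2d, an exchange factor with a DENN domain, had 0, 18 and 32 reads, at least 10.4-fold higher in CD115plusGMP than in CMP. The SNARE gene Vamp5 had 129 reads in CMP, 0 in CD115plusGMP and 33 in Neutrophil, at least 24.8-fold lower in CD115plusGMP than in CMP. Exons shared with an opposite-strand gene were looked up for the Rab members only. The values of these regulators are thus also values of the locus. Gdi2 rose by 1.39 ± 0.25 in Neutrophil against CMP, and Rabggta, a subunit of the enzyme that attaches the lipid anchor of Rabs, was at least 9.11-fold higher, from 11 reads against 0 (limma adjusted p = 0.0014; the fitted difference of 3.36 was 2.48 without Neutrophil replicate 3 and 4.2 without replicate 1).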

How the data were processed

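Libraries of 5 sorted marrow populations, 3 each, were made with the Universal Plus mRNA-Seq kit, per the labels. The authors deposited 1 table of log2 CPM values (log2 of counts per 1000000 of a scaled library size). FastQC 0.11.7, featureCounts 1.22.2, edgeR 1.30.5 and the GRCm38 build are named in the submitters' processing notes. The aligner, strand setting and gene models were not given in the sources used here. All deposited log2 values turned out, within 0.001 reads, to hold a whole number of reads with 0.5 added, so reads were recovered. No value column was left unmapped, and 503 genes carry no symbol. These genes took 55.6% to 69.5% of a library's reads in the first set, with the highest share in a Neutrophil library, and 0.102% to 0.146% in the second.

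Members were found by symbol; members, roles and lists were chosen with earlier results of these data known. Genes whose log2 CPM exceeded 0 in 3 or more of 15 libraries were fitted with limma 3.58.1 in R 4.3.3 (group means over all 15 libraries, eBayes with trend), 2-sided, adjusted by Benjamini-Hochberg, with a difference of at least 1 log2 unit. Python 3.11.15 was used for counts and figures. The log2 differences depend on the 0.5 added. It understates differences of low genes and, between libraries of unequal size, gives one to genes with few or 0 reads (Rab15, with 0 reads in Neutrophil and CMP, is at 0.31 and -1.06). Read ratios are scaled by the library sizes that the deposited values imply, with exact 95% counting intervals. These sizes were 0.254 to 0.445 of the table's reads in Neutrophil, 0.57 to 0.648 in CD115plusGMP and 0.861 to 0.908 in CMP. Ratios of Neutrophil to the other 2 groups, and of CD115plusGMP to CMP, are therefore larger than on plain totals, and the intervals do not cover this. Against 0 reads a floor of 3 reads over the group gives "at least". Coordinates and exon lengths are from GENCODE M21. No result of a test of the fit on simulated data is given here. Within a group, chi-square per degree of freedom between libraries was 2.10 to 24.4, so all differed by more than sampling noise.

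Named members are those called (up to 6 per direction), the 5 highest and 3 lowest per kb, and 13 named whatever their values; Rab23, Rab20, Rab7b, Rab10, Rab1a, Rab21, Rab22a, Rab5b and others outside this rule were named after their values were seen. Of the Rab regulators up to 4 called genes per list and 6 set genes could be named. Alternatives left out each library, added the replicate number as a block, changed the filter, the reads added, the scaling, the libraries fitted, the weights (voom) and the call rule.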

Additional observations from a re-analysis of the deposited data

How the results depend on the processing

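The first-set counts rest on few reads per gene and on the scaling, and first-set values cannot be assigned to a strand. Over the alternatives 347 of 374 values of named genes kept direction and side of the threshold in CD115plusGMP against CMP, 692 of 723 in Neutrophil against CMP, 618 of 674 in Neutrophil against CD115plusGMP and 309 of 334 in ProNeut against PreNeut. The causes of the changes were not tested. In ProNeut against PreNeut the 0 members called became 1 with 2 reads added, 2 with only the 2 groups in the fit, 2 with only the libraries of the set, 4 with voom weights and 0 to 1 without each library in turn. The 2 Rab regulators called became 1 with the filter at 3, with median centring and with plain totals, 6 with only the 2 groups, 6 with only the libraries of the set, 11 with voom weights and 0 to 4 without each library. In CD115plusGMP against CMP the 26 regulators called became 15 with only the libraries of the set. Values near 0 changed sign in ProNeut against PreNeut: Rab27a was at 0.02 with median centring and at -0.05 to 0 without each library, Rab27b at -2.13 to 0.53, Rab32 at 0.05 with median centring and at -0.07 to 0.04, and Rab44 at -0.04 with quantile normalization and 0 with plain totals. Rab5c in Neutrophil against CMP was at -0.02 with quantile normalization and -0.3 with plain totals.

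With 2 reads added, the regulators called were 75 higher and 6 lower in Neutrophil against CMP and 58 and 8 in Neutrophil against CD115plusGMP. In CD115plusGMP against CMP they were 16 and 5 without CD115plusGMP replicate 2.

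Deviations of same-numbered libraries from their group means gave r of -0.053 to 0.145 over genes, and those of other library pairs -0.133 to 0.095. In ProNeut against PreNeut the same-numbered pairs were at 0.083, 0.054 and 0.145 and the others at -0.133 to 0.09. Correlations this small, with 3 libraries per group, neither show nor exclude that replicate numbers pair libraries. With the replicate block the members called were 0 in ProNeut against PreNeut, 6 in CD115plusGMP against CMP, 24 in Neutrophil against CMP and 20 in Neutrophil against CD115plusGMP, and the regulators 2, 26, 67 and 61.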
